A study of Mus musculus with 4 samples.

Results

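Nuclear Wnt effectors and the beta-catenin destruction complex were examined here as 9 genes chosen by name: Ctnnb1, Apc, Axin1, Axin2 and Gsk3b for the turnover of beta-catenin, and Tcf7, Tcf7l1, Tcf7l2 and Lef1 for TCF/LEF transcription. All 9 were found among 21631 protein-coding genes of chromosomes 1 to 19 and X. A member's window was its gene body with 5 kb on either side, and a peak belonged to it if the peak's summit, the position of highest tag pileup, lay in that window. By this rule the 9 genes held 34 of the 77823 deposited peaks. Other pathway genes, in lists headed turnover (26), transcription partners (25) and Wnt targets (28), served as context. These headings are broad, and some listed genes are better known for other roles.

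The cells were 4T1-TGL, a mouse breast cancer line of the BALBC strain, labelled WT in genotype and grown in DMEM/F12. ChIRP pulls a nuclear RNA out of sonicated chromatin with biotin-labelled antisense oligonucleotides and sequences the DNA that comes along, here for the long noncoding RNA Malat1. There were 4 libraries, 1 in each group: Malat1 pull-downs with the probe sets called Even and Odd, a pull-down called Lacz, and the Even input. The data are a single peak list from 1 merged treatment of 851227 tags against an input of 50030325 tags, both after duplicate removal. The labels and headers do not say which pull-downs were merged. No value below therefore has a replicate error, the Lacz background was not analysed here, and the probe sets were not compared.

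In the absence of a Wnt ligand, a cytoplasmic complex built on the scaffolds Axin1 or Axin2 and on Apc holds beta-catenin (Ctnnb1) so that the kinase Gsk3b can mark it for degradation. Ligand binding at the cell surface stops this, and beta-catenin enters the nucleus, where it joins TCF/LEF proteins on DNA and turns their target genes on. In mammary epithelium the pathway is known for its part in progenitor renewal and, when active without restraint, in tumours.

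Summits were present at 7 of the 9 genes (77.8%), against 60.8% of all protein-coding genes and 85.3% of those at least as long as Ctnnb1, the shortest of the 9 at 27.1 kb. Ctnnb1 and Axin2 held none. The median length of the 9 genes was 102 kb, against 17.3 kb for all protein-coding genes. Tcf7l2 had 12 summits, Tcf7l1 7, Tcf7 and Apc 5 each, Gsk3b and Lef1 2 each, and Axin1 1.

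To allow for length and regional density, each count was set against the number that the 1 Mb of sequence on either side of the window predicts. The 9 windows together held 34 summits, where 38.0 were predicted, a ratio of 0.895 (95% exact Poisson interval 0.620 to 1.25, counting error only). The 4 TCF/LEF genes held 26 summits with 20.4 predicted, a ratio of 1.27 (0.833 to 1.87). The 5 turnover genes held 8 with 17.6 predicted, a ratio of 0.455 (0.196 to 0.896). These intervals take summits as independent, which was not established, and whether the 2 groups differ was not tested. Among the 34 peaks, TCF/LEF genes held 172 treatment tags where the flanks predicted 143, and turnover genes held 32 where 144 were predicted. These tag predictions are flank means, in which single large peaks weigh heavily. Near Axin1, 1 flank peak held 149 tags, where the median flank peak held 4. The observed tags are skewed as well, with 31 of the 172 in 1 peak. Tag totals have no interval and were not tested.

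**Figure D1:**
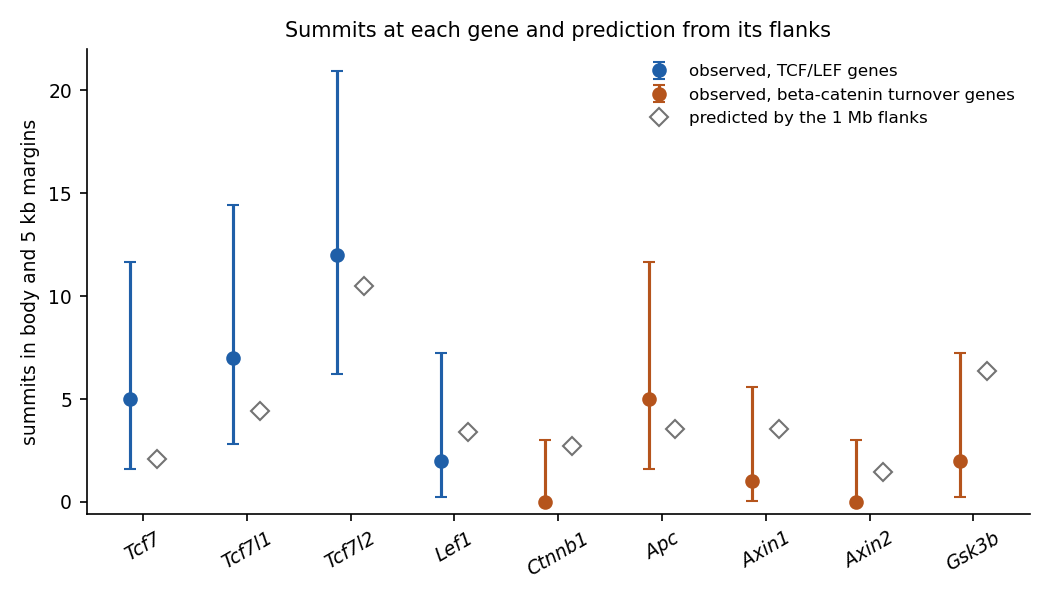
Filled circles give the summits in the gene body and 5 kb margins of each gene, with 95% exact Poisson intervals. Open diamonds give the number that the 1 Mb flanks predict. For a count of 0 the bar ends at 3, a limit on the upper side only. It is shorter than an interval built as for the other genes. Tcf7, Tcf7l1, Tcf7l2 and Apc lie above their predictions and the other 5 genes below, and every interval includes the prediction.

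No single member passed the test against its flanks. In a two-sided exact binomial test of each gene, with Benjamini-Hochberg adjustment over 21382 genes, the adjusted p was 1 for each of the 9. The unadjusted p was lowest at Tcf7 (exact p = 0.065), Ctnnb1 (exact p = 0.12) and Gsk3b (exact p = 0.13), and 0 of the 9 members lay under 0.05 with these settings. Other settings put Gsk3b under it with the gene body alone (ratio 0.165, exact p = 0.0452) and with a 20 kb margin (ratio 0.267, exact p = 0.0458), and Tcf7 with 2 Mb flanks (ratio 2.63, exact p = 0.0459). After Benjamini-Hochberg adjustment over all genes the lowest of these was an exact binomial p of 0.779. Over all genes, 0.0795% were called higher than their flanks and 0.0421% lower at an adjusted p under 0.05, and 5.23% had an unadjusted p under 0.05. More summits than predicted were counted at 4 of the 9 members, against 41.9% of all genes, and the median ratio was 0.586 for the members and 0.767 for all genes. Peaks are not replicates, so these p-values describe this list only, and with 1.44 to 10.5 summits predicted per gene a moderate difference was not detectable at this depth.

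No start window listed for the members was overlapped by a peak, and none was listed for Apc or Axin1. RefSeq (GRCm38.p6) lists 13 start windows for 7 of the 9 genes, each covering 250 bases before to 50 after a start. Of these, 0 were overlapped by a peak, against 1.94% of all listed windows. With 13 windows, some overlapping each other, and a share this low, a count of 0 does not set the members apart. A summit lay within 2 kb of 1 of the 13 starts, that of Tcf7l1, against 14.2% of all listed starts. The motif CTTTGA, the core bound by TCF/LEF proteins, or its reverse complement TCAAAG was found in the 250 bases before 2 of the 13 starts, against 13.9% of all 32619 listed starts. They were the Gsk3b start (1 match) and the most downstream Lef1 start (2 matches). Shown are the start with a summit within 2 kb, the starts with the motif, and the first Ctnnb1 start, whose gene held no summit in the densest flanks. Each sequence is the 250 bases before the start, from RefSeq, 5′ to 3′ on the gene's strand, with matches to the motif in capitals.
Tcf7l1, minus strand, chr6:72789046-72789295: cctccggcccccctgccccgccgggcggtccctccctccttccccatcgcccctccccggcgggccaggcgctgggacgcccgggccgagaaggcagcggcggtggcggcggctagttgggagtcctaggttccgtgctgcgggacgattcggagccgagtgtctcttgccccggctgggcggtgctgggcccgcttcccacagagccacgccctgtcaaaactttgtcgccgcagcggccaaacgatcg
Gsk3b, plus strand, chr16:38088751-38089000: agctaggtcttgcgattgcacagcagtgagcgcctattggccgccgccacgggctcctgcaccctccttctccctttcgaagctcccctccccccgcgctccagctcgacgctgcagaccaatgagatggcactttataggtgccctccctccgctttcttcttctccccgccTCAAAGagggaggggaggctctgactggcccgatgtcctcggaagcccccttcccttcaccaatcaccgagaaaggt
Lef1, plus strand, chr3:131156044-131156293: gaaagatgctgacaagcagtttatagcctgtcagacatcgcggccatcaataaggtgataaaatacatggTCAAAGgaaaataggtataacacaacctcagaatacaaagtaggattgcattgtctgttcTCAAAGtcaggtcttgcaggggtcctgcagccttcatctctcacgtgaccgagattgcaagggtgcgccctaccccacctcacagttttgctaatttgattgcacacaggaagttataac
Ctnnb1, plus strand, chr9:120933150-120933399: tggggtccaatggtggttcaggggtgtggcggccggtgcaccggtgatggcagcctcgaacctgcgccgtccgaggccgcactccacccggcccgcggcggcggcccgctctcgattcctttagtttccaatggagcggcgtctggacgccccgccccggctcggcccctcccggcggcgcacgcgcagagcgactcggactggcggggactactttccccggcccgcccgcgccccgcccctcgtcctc
The Tcf7l1 and Ctnnb1 windows hold no match and are GC-rich (73.6% and 74.8% G or C), whereas the Lef1 window is 44.8% G or C.

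Tcf7l2 encodes a TCF factor that carries beta-catenin to its targets in epithelia. It is the longest of the 9 genes (chromosome 19, 55741797 to 55933659, GRCm38, 192 kb, gene ID 21416) and lies on the chromosome of Malat1, 49.9 Mb away. Its 12 summits, all in the body, stood against 10.5 predicted, a ratio of 1.14. The peaks held 3 to 31 tags, and their authors' fold enrichment, which is the tag height at the summit over the local scaled input, ran from 65.2 to 341. The largest by tags, at 55862419 to 55862801, had 31 tags, a height of 9 and a fold of 312. The largest by fold, at 55835369 to 55835651, had 15 tags and a fold of 341. In the flanks, 3 of 104 peaks had a higher fold and 3 had more tags than the best of Tcf7l2.

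The Tcf7l2 summits were unevenly spread. Between 84.9 and 133 kb from the start-side end lay 7 of the 12, in 48.3 kb, with 74 of the gene's 92 tags. This stretch was chosen after its values were seen and was not tested. A pair of its summits lay 537 bp apart. The median implied input of the 12 peaks was 1.75, against 1.59 in the flanks. Implied input is the local scaled input that MACS used for a peak, divided by the mean over the genome. MACS draws it from regions of up to 10 kb, so it is not the input of the peak alone. The lowest implied input at the 34 member peaks was 1.00. This was also the lowest in the flanks, so it does not set the members apart.

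Tcf7l1 encodes a TCF factor that mostly acts as a repressor in the absence of beta-catenin. The gene (chromosome 6, 72626371 to 72789045, 163 kb, gene ID 21415) held 7 summits in its body, with 4.4 predicted. It had the highest fold of all 34 peaks, at 72787472 to 72787652, with 12 tags, a height of 7, a fold of 398 and rank 3915 by fold in the whole list. This summit lay 1.5 kb into the gene from its start, whose upstream sequence is the first shown above. The peak with the most tags, at 72650869 to 72651205, had 23 tags and a fold of 386, and lay 138 kb from the start. Another peak had 6 tags and a fold of 199, and the other 4 held 3 tags each, the fewest of any peak in the list. The flanks were unequal, with 39 summits on the lower side and 12 on the higher. From the lower flank alone the prediction was 6.73 and the ratio 1.04, and from the higher flank alone 2.07 and 3.38 (exact p = 0.015, adjusted p = 0.589).

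Tcf7 encodes the TCF factor best known from T cells. It is compact (chromosome 11, 52246527 to 52283383, 36.9 kb, gene ID 21414) and had the highest ratio of the 9, with 5 summits where 2.09 were predicted (ratio 2.40, Poisson interval 0.779 to 5.6), rank 2572 of 21382 genes. All were weak: the peaks held 6, 4, 3, 3 and 3 tags at folds of 119, 111, 85.3, 147 and 108. Of these, 4 lay in the body, and the last lay 2.19 kb upstream of the nearest listed start. Here too the flanks were unequal, with 29 summits on the lower side and 60 on the higher. The ratio was 3.68 against the lower flank alone (exact p = 0.017, adjusted p = 0.64) and 1.78 against the higher. Without the 3-tag peaks 2 summits remained and the ratio was 1.61.

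Lef1, the remaining TCF/LEF gene and itself a Wnt target in many tissues (chromosome 3, 131110297 to 131224357, 114 kb, gene ID 16842), held 2 summits with 3.41 predicted. Its peaks had 5 and 3 tags at folds of 142 and 94.4. They lay 586 bp apart, 5.0 and 4.41 kb inside the gene's far end, so that the rest of the body held no summit. The nearest summit to its first start was 8.15 kb upstream, outside the 5 kb margin and so not counted. That flank peak had 48 tags and a fold of 712, above the highest of the 34 member peaks (31 tags, fold 398).

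**Figure D2:**
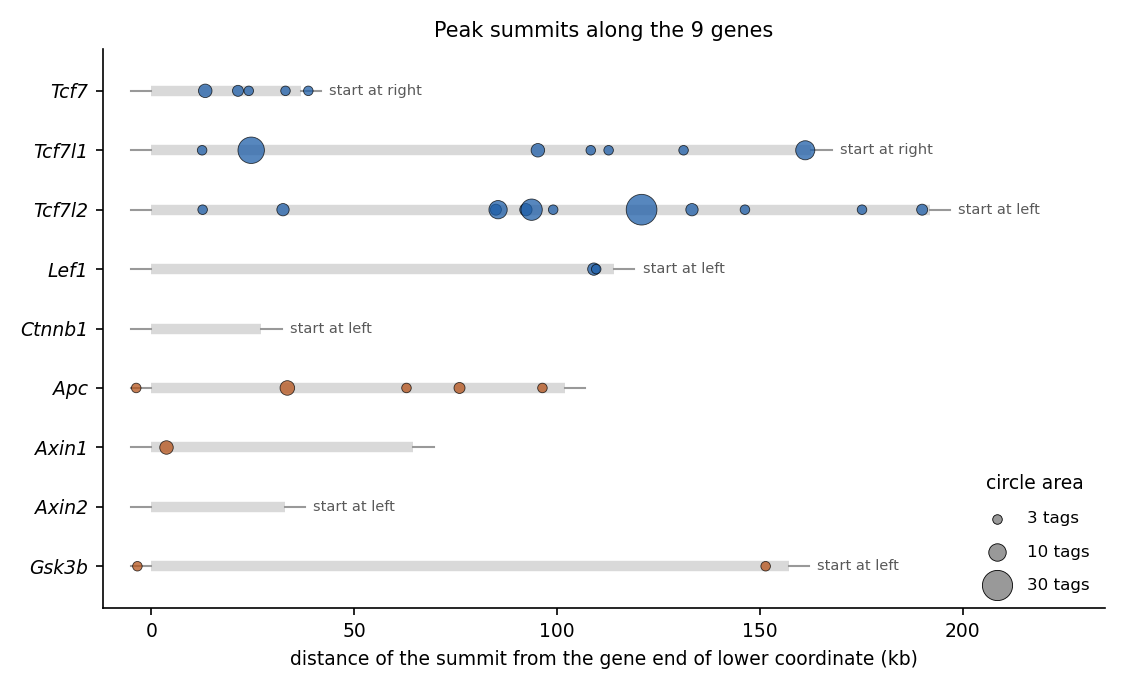
Peak summits (circles, area in proportion to treatment tags) along the 9 genes, drawn to scale as grey bars with 5 kb margins; blue marks TCF/LEF genes, brown marks turnover genes, and the side of the start is given where the RefSeq start table lists it. Of the 34 summits 31 lie in gene bodies, and the 5 peaks with 10 or more tags are at Tcf7l1 and Tcf7l2.

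Ctnnb1, which encodes beta-catenin itself (chromosome 9, 120933400 to 120960507, gene ID 12387), held 0 summits with 2.73 predicted; a count of 0 allows up to 3. Its flanks were the densest of the 9, at 73.5 summits per Mb and a median implied input of 1.73, and every 100 kb of them held at least 3 summits. The nearest summits lay 11.1 kb below and 12 kb above the gene. The summit-free stretch between them was 50.2 kb, ranked 4 by length among 146 intervals between neighbouring summits in the region. The median interval there was 8.78 kb. With a count of 0 the stretch had to be longer than the gene's window (37.1 kb). Its high rank therefore follows from that count and adds no separate evidence. With a margin of 20 kb in place of 5 kb, 4 summits entered the window and the ratio was 0.811. The neighbour on the higher side, the kinase gene Ulk4 (322 kb), had 31 summits with 22.4 predicted, the most of any gene within 1 Mb.

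Axin2, a scaffold that is also a direct Wnt target and a common reporter of pathway activity (chromosome 11, 108917828 to 108950783, gene ID 12006), held 0 summits with 1.44 predicted, so that an absence was not detectable at this depth. Its summit-free stretch was longer, 123 kb, ranked 3 by length among 66 intervals in the region. Here too the stretch had to exceed the window (43.0 kb), so the rank adds no separate evidence. The nearest summits lay 25.6 kb below and 64.5 kb above the gene. With a 20 kb margin the count was still 0.

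Axin1, the scaffold found in most cells (chromosome 17, 26131217 to 26195811, gene ID 12005), held 1 summit with 3.54 predicted, a ratio of 0.282 (Poisson interval 0.00715 to 1.57). The peak had 6 tags and a fold of 153 and lay 3.57 kb inside the gene end of lower coordinate. Gsk3b, the kinase of the complex (chromosome 16, 38089001 to 38246084, 157 kb, gene ID 56637), held 2 summits with 6.35 predicted, a ratio of 0.315 (0.0381 to 1.14). Both its peaks had 3 tags, at folds of 96.4 and 53.6. The first lay 3.45 kb upstream of the start, within the neighbouring lncRNA gene BC031361, and the second 5.67 kb inside the far end. Without 3-tag peaks, Gsk3b therefore had 0 summits.

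Apc, a tumour suppressor that holds beta-catenin in the complex (chromosome 18, 34220297 to 34322190, 102 kb, gene ID 11789), was the turnover gene with the most summits, 5 with 3.52 predicted. Its peaks had 3, 7, 3, 4 and 3 tags at folds of 179.5, 193, 128, 177 and 109. The first lay 3.74 kb outside the gene end of lower coordinate, within the pseudogene Gm10548, and the other 4 in the body. Its ratio was 1.42, but 0.872 without 3-tag peaks.

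**Figure D3:**
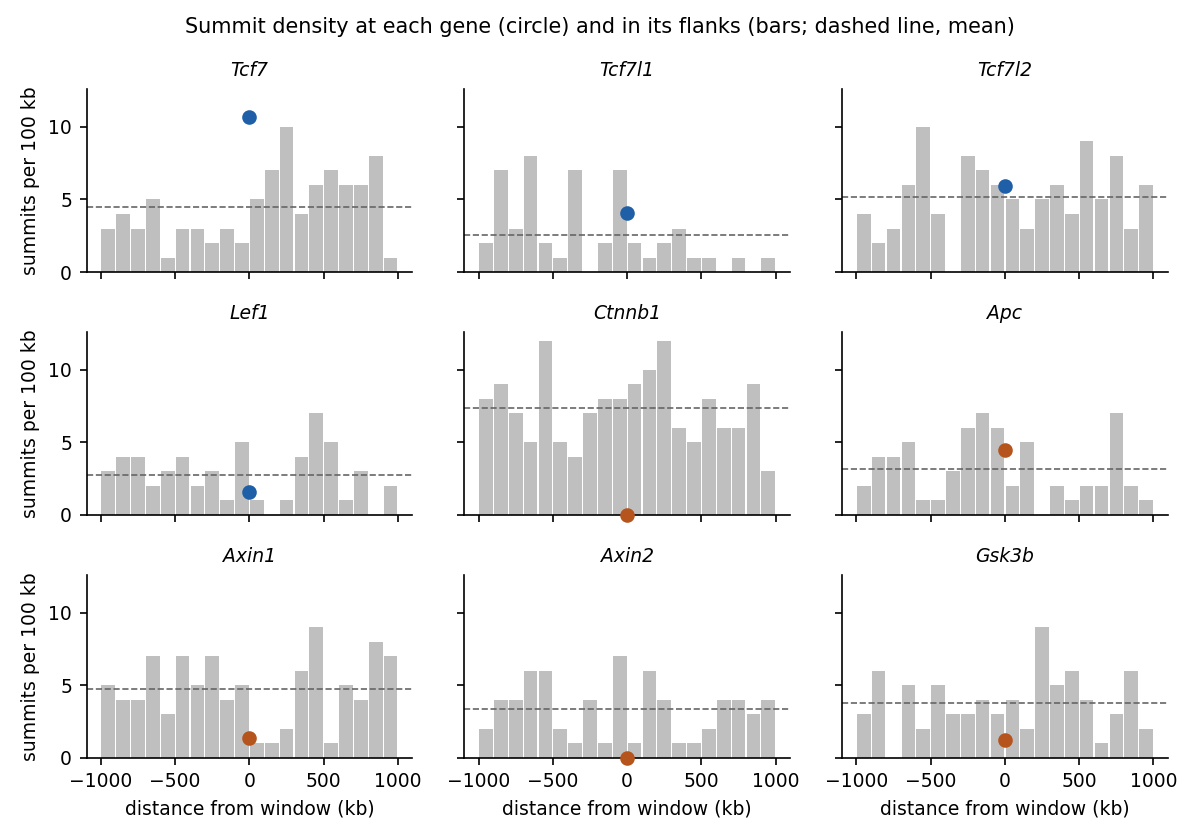
Summits per 100 kb in the 1 Mb on either side of each gene's window (grey bars; dashed line, mean of the flanks) and the density inside the window (circle at 0; blue, TCF/LEF genes; brown, turnover genes). The flank means run from 25.5 summits per Mb at Tcf7l1 to 73.5 at Ctnnb1, and single bars vary widely around them.

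Many peaks at the 9 genes held few tags. The shares given here rest on 34 peaks and were not tested. Of the 34, 17 held 3 tags (50%), against 38.4% of the 747 flank peaks and 37.2% of the whole list, and 5 held 10 or more (14.7%), against 19.4% and 22.4%. The median fold was 110 at the members, against 135 in the flanks and 133 in the whole list, and the median height was 3 tags in each. By group, the median fold was 107 at the 26 TCF/LEF peaks and 140 at the 8 turnover peaks. The lower median at the members was therefore not shared by the turnover genes. A height of 3 tags gives a fold of 179.5 where the input is at the genome mean, so few tags yield a large fold. The median implied input was 1.4 at the members, in the flanks and in the whole list. A peak of 10 or more tags was present at 2 of the 9 genes, Tcf7l1 and Tcf7l2, against 25.9% of all protein-coding genes. The members are longer (median 102 kb, against 17.3 kb), and no share matched for length was computed here. No member held the strongest peak of its region: at Gsk3b 75% of the flank peaks had a higher fold than its best, at Lef1 54.5%, at Tcf7 53.9%, at Axin1 41.1% and at Apc 30.2%, and at Tcf7l1 5.88% and Tcf7l2 2.88%.

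**Figure D4:**
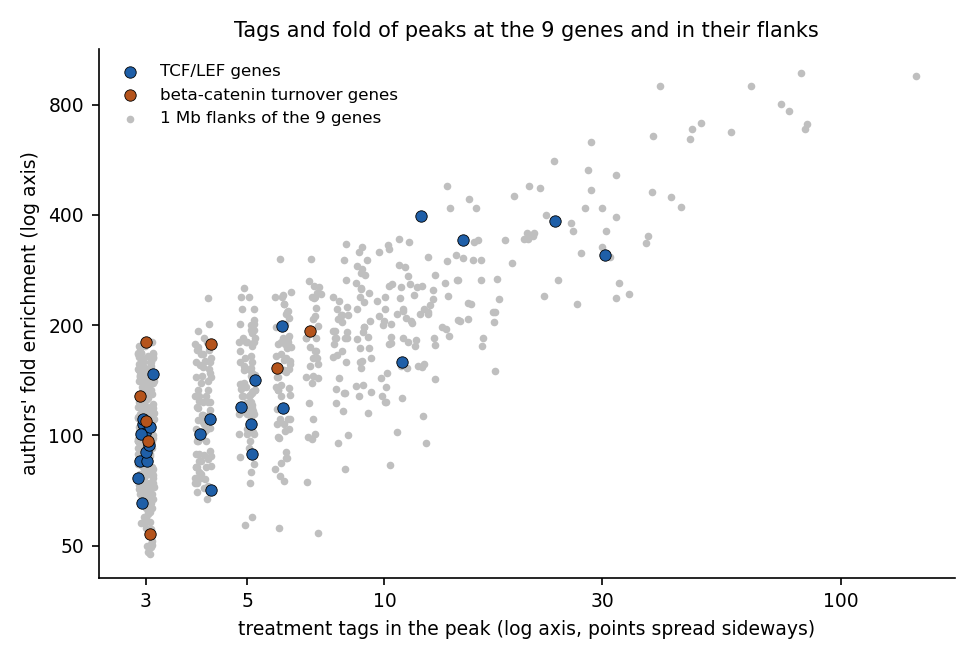
Authors' fold enrichment against treatment tags for the peaks at TCF/LEF genes (blue), at turnover genes (brown) and in the 1 Mb flanks of the 9 genes (grey), both on log axes. Turnover gene peaks hold 3 to 7 tags, and the 5 TCF/LEF peaks of 10 or more tags hold 11 to 31. The strongest flank peaks reach 149 tags and a fold of 975.

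The members' neighbourhoods set the scale for these counts. The gene with the most summits within 1 Mb was Fstl4 near Tcf7 (30 summits, 16.4 predicted), Vti1a near Tcf7l2 (17 with 16.6), Prkca near Axin2 (15 with 14.3) and Col25a1 near Lef1 (14 with 11.4). Ulk4 near Ctnnb1 is given above. Counts were lower near the remaining 4 members, where the highest were at Epb41l4a near Apc and Stxbp5l near Gsk3b (9 each), Itpr3 near Axin1 (8) and Reep1 near Tcf7l1 (7). Of the protein-coding genes next to a member, Rpl14 below Ctnnb1, Rpl34 below and Hadh above Lef1, Srp19 above Apc, and Pdia2 above Axin1 held no summit, while Skp1, which overlaps the end of Tcf7 and encodes a ubiquitin ligase subunit, held 2. Among genes of the same chromosome with an equal count, those nearest in length were Cpeb3 to Tcf7l2 (188 kb, 6.44 predicted), Umad1 to Tcf7l1 (169 kb, 4.94 predicted), Aspscr1 to Tcf7 (36.5 kb, 1.91 predicted) and Tpm1 to Ctnnb1 (27.1 kb, 1.41 predicted). For the others they were Cables1 to Apc, Efhb to Axin1, Ywhae to Axin2, Cblb to Gsk3b and Alpk1 to Lef1.

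Of the other genes of the pathway, 0 in the 3 lists passed the exact binomial test in either direction, with a lowest adjusted p of 0.614. An unadjusted p under 0.05 was found for 1 other turnover gene, 5 transcription partners and 3 targets, against 5.23% of all genes. In the list of other turnover genes, a summit was present at 20 of 26 (76.9%), with 53 summits and 61.6 predicted. That list also holds Ctnnbip1 and Cby1, which inhibit the joint action of beta-catenin and TCF rather than act in turnover. Here the highest fold was at Apc2, the neural relative of Apc, with 74 tags and a fold of 920. The highest ratio in this list was at Amer1, which brings Apc to the membrane, with 1 summit and 0.259 predicted. Csnk1e, a casein kinase of the pathway, had 1 with 6.18 predicted (exact p = 0.036, adjusted p = 0.871). Ctnnbip1, which blocks the binding of beta-catenin to TCF, had 0 with 2.30 predicted.

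The list of transcription partners had a summit at 21 of 25 genes (84.0%), with 80 summits and 65.2 predicted (ratio 1.23, Poisson interval 0.973 to 1.53). It also holds genes better known from cell junctions, namely Cdh1 (3 summits) and Jup, Ctnna1 and Ctnnd1 (4 each). Its totals are therefore not those of transcription partners alone. The highest ratio was at Chd8, a chromatin remodeller that represses beta-catenin targets, with 4 summits and 0.769 predicted (exact p = 0.011, adjusted p = 0.614). The highest fold was at Cdk8, the Mediator kinase, with 38 tags, a fold of 649 and 6 summits where 2.01 were predicted. Wnt target genes had a summit at 19 of 28 (67.9%), with 70 summits and 56.1 predicted (ratio 1.25, 0.972 to 1.58). The highest fold was at Cd44, a surface receptor of progenitor cells, with 35 tags, a fold of 601 and 9 summits where 4.27 were predicted. The highest ratio was at Dkk1, a secreted Wnt inhibitor, with 1 summit and 0.266 predicted. Ccnd1, which encodes cyclin D1, held no summit, with 1.05 predicted. Against 60.8% of all protein-coding genes with a summit, the median gene lengths were 25.0, 65.9 and 12.6 kb in the 3 lists.

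**Figure D5:**
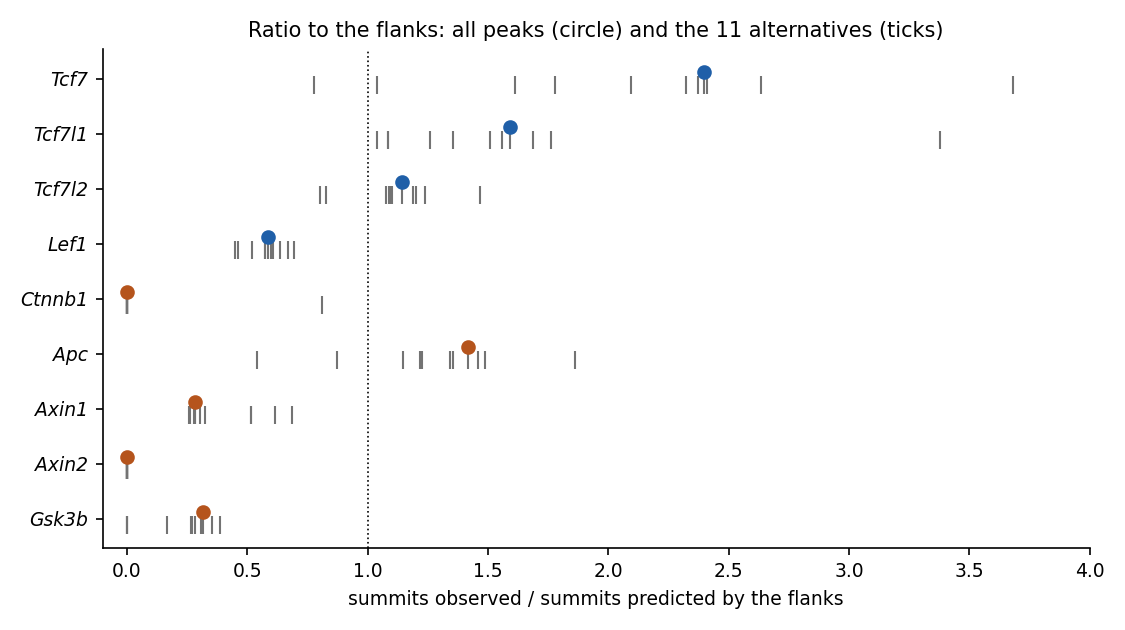
Ratio of observed to predicted summits at each gene with all peaks and 1 Mb flanks (circles) and under the 11 alternatives (ticks; dotted line, ratio of 1). Lef1, Axin1, Axin2, Gsk3b and Ctnnb1 stay below 1 and Tcf7l1 above 1 in all 11, while Tcf7, Tcf7l2 and Apc cross 1.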

How the data were processed

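The files are 3 lists of the same 77823 peaks made, per the file headers, by a single MACS 1.4.4 run with a p cutoff of 1e-05, a fragment length of 53 bp, duplicates removed and the input scaled down to the treatment. Per the submitters' processing notes, coordinates are on mm10 (GRCm38). No source used here names the aligner. Per the file headers, the deposited values are the whole-number count of treatment tags per peak, the score (10 times the −log10 of the MACS p), the fold over the local scaled input, and a false discovery rate that is 0 percent for every peak. The summit height is the deposited signal, an unscaled pileup. The input was 58.8 times as deep as the treatment.

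Genes and starts came from RefSeq tables of GRCm38.p6, which give no exons. Windows, flanks (1 Mb, ended at the chromosome's first or last summit) and the exact binomial test were computed with Python 3.11.15, numpy 2.4.6, pandas 2.3.3 and scipy 1.17.1, after the steps were tested on simulated data. Implied input is height over fold, divided by 0.0167 tags per fragment length. Intervals cover counting error only. The members, lists and tests were chosen with earlier results of these data known. Besides the members, the genes named were those with the most summits within 1 Mb, the adjacent genes, the nearest in length with an equal count on the same chromosome, and the extremes of each pathway list; Csnk1e, Ctnnbip1 and Ccnd1 were added after their values were seen.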

Additional observations from a re-analysis of the deposited data

How the results depend on the processing

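Each result was recomputed under 9 alternatives (flanks of 500 kb or 2 Mb, no margin or 20 kb, a score of at least 100, no 3-tag peaks, fold at or above the median, peak overlap in place of the summit, flank positions inside genes only) and, chosen after seeing the data, from the lower or the higher flank alone. The number of members called stayed 0 in all 11, with a lowest adjusted p of 0.589. Members with a summit numbered 6 to 8. The ratio of Apc to its flanks fell below 1 with a score of at least 100 (0.542) and without 3-tag peaks (0.872), that of Tcf7l2 with a score of at least 100 (0.803) and at or above the median fold (0.826), and that of Tcf7 at or above the median fold (0.776). With a score of at least 100 the ratio over all 9 members was 0.596, and at or above the median fold that of the TCF/LEF genes was 0.812. The turnover genes together ranged from 0.240 to 0.620. The count of all protein-coding genes called was 26, but 11 and 65 with flanks of 500 kb and 2 Mb, 16 with no margin and 71 with 20 kb. It was 12 with a score of at least 100, 0 at or above the median fold, and 54 and 50 from the lower and higher flank alone. Without 3-tag peaks it stayed 26, with flank positions inside genes only it was 26, and with peak overlap 27. Fewer peaks enter the stricter settings, but why the counts differ was not tested. No paired analysis was possible because each group has 1 library and the list is 1 merged treatment.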
